A study of Mus musculus with 18 samples.

Results

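The genes described here are 44 genes of cell proliferation, taken as a list of symbols, among 49184 mouse genes to which a transcript of the libraries was matched. They were split by role into 23 genes of mitosis and 21 genes of DNA replication, and the 2 classes are described apart. Expression was measured by sequencing of total RNA after a step that depletes ribosomal RNA, in 18 libraries of femoral condyle cartilage caps from male C57Bl/6J mice aged 12 weeks, with the genotype given as C57bl6 in every group. The injured groups (day 1 and day 7 post injury, 3 libraries each) came from right knees in which a mechanical load had ruptured the anterior cruciate ligament (ACL), and the contralateral groups (day 1 and day 7, 3 libraries each) came from the left knees. A further 6 libraries, labelled as day 7 naïve, came from mice without the load. By the study's scheme each library pooled the knees of 2 mice at day 1, the knees of 4 mice at day 7 and 2 naïve knees, whereas the text of the series gives 4 mice for each sample. The left and right knees of naïve mice were pooled apart, so naïve libraries share mice, as do injured and contralateral libraries. Which ones do cannot be told from the labels. All libraries were treated as independent, the 6 naïve ones included, so the p-values measure the spread between pools. They may be too small where pools of the same group share mice, as naïve ones do. Between injured and contralateral knees of the same mice they may instead be too large, if such knees are alike. The study also left out a library of this model for a low share of mapped reads, without naming it. Its mouse numbers and pool sizes account for 18 libraries, as many as are here. The library left out is thus probably among the 18 and in the tests below, but which one it is is not known. Library totals lay between 16074762 and 41794005 estimated counts (median 25465706).

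A dividing cell copies its DNA in S phase and separates the copies in mitosis. Replication genes such as those of the MCM helicase are switched on by E2F factors when a cell leaves G1, and mitosis genes such as cyclin B and the Aurora kinases are switched on later, by a complex of MuvB, B-Myb and Foxm1 that acts through the cell cycle homology region of their promoters. Articular chondrocytes of an adult joint rarely divide, and red marrow, which lies under the cartilage in a mouse knee, holds many dividing erythroid and myeloid precursors.

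In the naïve libraries, proliferation genes were readily detected. The lowest count of any of the 44 genes in any library was 126 estimated counts. Levels of different genes were compared per transcript length, as length-normalised transcript abundance (TPM). Mki67, which coats chromosomes in mitosis and is the usual marker of cycling cells, was highest, with a mean of 94.5 TPM ± 14.2 (SD, n = 6). Pcna, the sliding clamp of the DNA polymerases, followed at 87.9 TPM ± 8.95, Top2a, the topoisomerase that untangles DNA, at 79.5 TPM ± 9.56, and Rrm2, a subunit of ribonucleotide reductase, at 66.2 TPM ± 7.56 (SD, n = 6 each). E2f1, the activating E2F factor, was lowest, at 5.47 TPM ± 1.20 (SD, n = 6). The median was 21.3 TPM over the mitosis genes and 16.6 TPM over the replication genes. E2f1 was still above 78.8% and Mki67 above 98.9% of the 33702 genes with a mean above 0 TPM in naïve libraries. The order of levels was gradual, since for none of the 43 pairs of neighbours in it did the lowest naïve library of the higher gene exceed the highest naïve library of the lower gene.

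**Figure D1:**
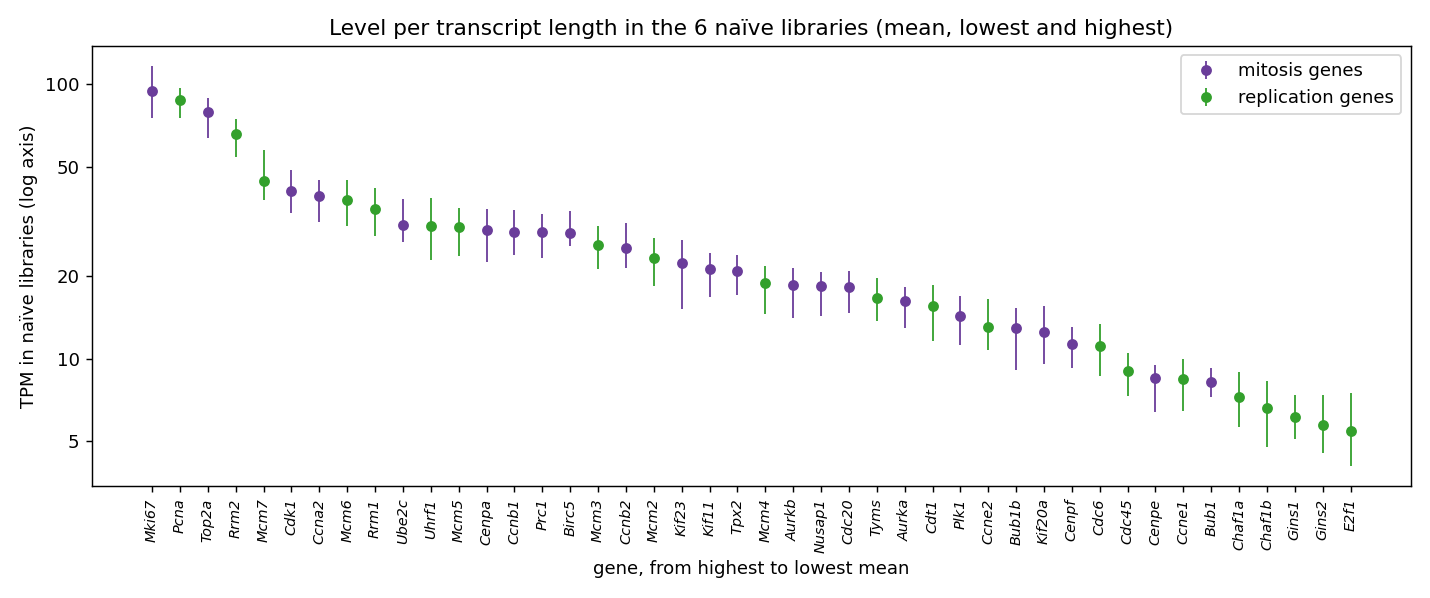
Level per transcript length (TPM, log axis) of each of the 44 genes in the 6 naïve libraries, ordered by mean. Points are means and bars run from the lowest to the highest library. Mitosis and replication genes are interleaved from 94.5 TPM (Mki67) to 5.47 TPM (E2f1), and the bars of every pair of neighbours overlap.

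The labels give the cell type as chondrocyte. All 15 chondrocyte markers were detected, with Col2a1, the main collagen of cartilage, the most abundant. All 14 erythroid markers found in the annotation, all 17 neutrophil markers and all 14 B-lineage markers were also above 3 counts in at least 1 library. Summed over its list, erythroid RNA made up 32119 to 42723 of the library-scaled counts termed CPM in naïve libraries, led by the globin gene Hbb-bs, and neutrophil RNA 12667 to 18547 CPM, led by Ngp, against 5217 to 9435 CPM for the chondrocyte list. Markers of marrow cells were thus present beside those of cartilage, and the cells in which the proliferation genes were expressed cannot be told from bulk RNA. Fewer dividing cells and less RNA per cell cannot be told apart either.

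The promoters of the 2 classes differed in the short motifs they held. In windows from 250 bases before to 50 bases after the RefSeq start (GRCm38.p6), 36 of the 44 genes were matched. Those without a window were Aurkb, Ccna2, Ccne2, Gins1, Gins2, Kif20a, Mcm4 and Tpx2. The cell cycle homology region, searched as TTTGAA or TTCGAA on both strands, was in 16 of 20 windows of mitosis genes (80%) and in 3 of 19 windows of replication genes (15.8%), against 19.2% of all 32851 windows. It followed a CCAAT box within 60 bases, from first base to first base, in 13 mitosis windows (65%) and 1 replication window (5.26%), against 2.10% of all windows. The E2F motif, searched as TTTCGCGC or TTTGGCGC on both strands, was in 6 replication windows (31.6%) and in 1 mitosis window (5%), against 0.813% of all windows. The CCAAT box was in 90% of mitosis, 68.4% of replication and 37.4% of all windows. These are matches of letters, with no measurement of binding. The following 30-base stretches of 4 mitosis genes and 4 replication genes show these motifs in capitals, each read 5′ to 3′ on the strand of the gene. ATTGG and GCGCCAAA are CCAAT and TTTGGCGC read on the other strand, and in Mcm5 the motif overlaps TTTCGCGC on the strand shown.
Mki67, minus strand, chr7:135716478-135716507, cell cycle homology region: ttagcgccagaaTTTGAAccgccgttttgg
Top2a, minus strand, chr11:99024312-99024341, cell cycle homology region: ctaattggtttaTTCGAAaaggcggtcttt
Cdk1, minus strand, chr10:69352966-69352995, cell cycle homology region: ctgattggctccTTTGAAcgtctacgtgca
Ccnb1, minus strand, chr13:100786536-100786565, CCAAT box: gccacgaactggCCAATgaggagcgagcgg
Pcna, minus strand, chr2:132253250-132253279, CCAAT box: accacgggtacgATTGGtccttgaggagag
Mcm2, minus strand, chr6:88898833-88898862, cell cycle homology region: agggctcagcctTTTGAAagctgtgggcgg
Mcm5, plus strand, chr8:75109349-75109378, E2F motif: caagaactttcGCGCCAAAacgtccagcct
Mcm6, minus strand, chr1:128359734-128359763, E2F motif: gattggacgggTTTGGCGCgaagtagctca
Counted from first base to first base, the region begins 9 bases after a CCAAT box on the other strand in Top2a and Cdk1, which can be read as attgg in the lower case letters, and in Mki67 25 bases after one on the strand shown, outside the stretch.

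Among the 18 libraries, 1 stood apart. In contralateral day 7 replicate 1, 9 mitosis and 14 replication genes were higher than in each of the other 17 libraries and 3 mitosis and 2 replication genes were lower than in all of them. Relative to the mean of the other 2 libraries of its group, the mitosis genes ran from 38.0% (Nusap1, which bundles spindle microtubules) to 177% (Ube2c, the ubiquitin-conjugating enzyme of the anaphase-promoting complex). The replication genes ran from 61.7% (Tyms, thymidylate synthase) to 171% (Cdt1, which loads the MCM helicase). In that library the 10 most abundant genes held 42.5% of the counts, against 16.6% to 29.8% elsewhere, and the erythroid and chondrocyte sums were 66399 and 15531 CPM, the highest of the 18. Fold changes against contralateral day 7 knees are therefore given with it and, where it mattered, without it. Injured day 7 replicate 3 was the lowest of all libraries for 12 mitosis and 14 replication genes, and injured day 1 replicate 3 for 8 and 5. Naïve replicate 6 was the highest for 8 mitosis genes and 1 replication gene.

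**Figure D2:**
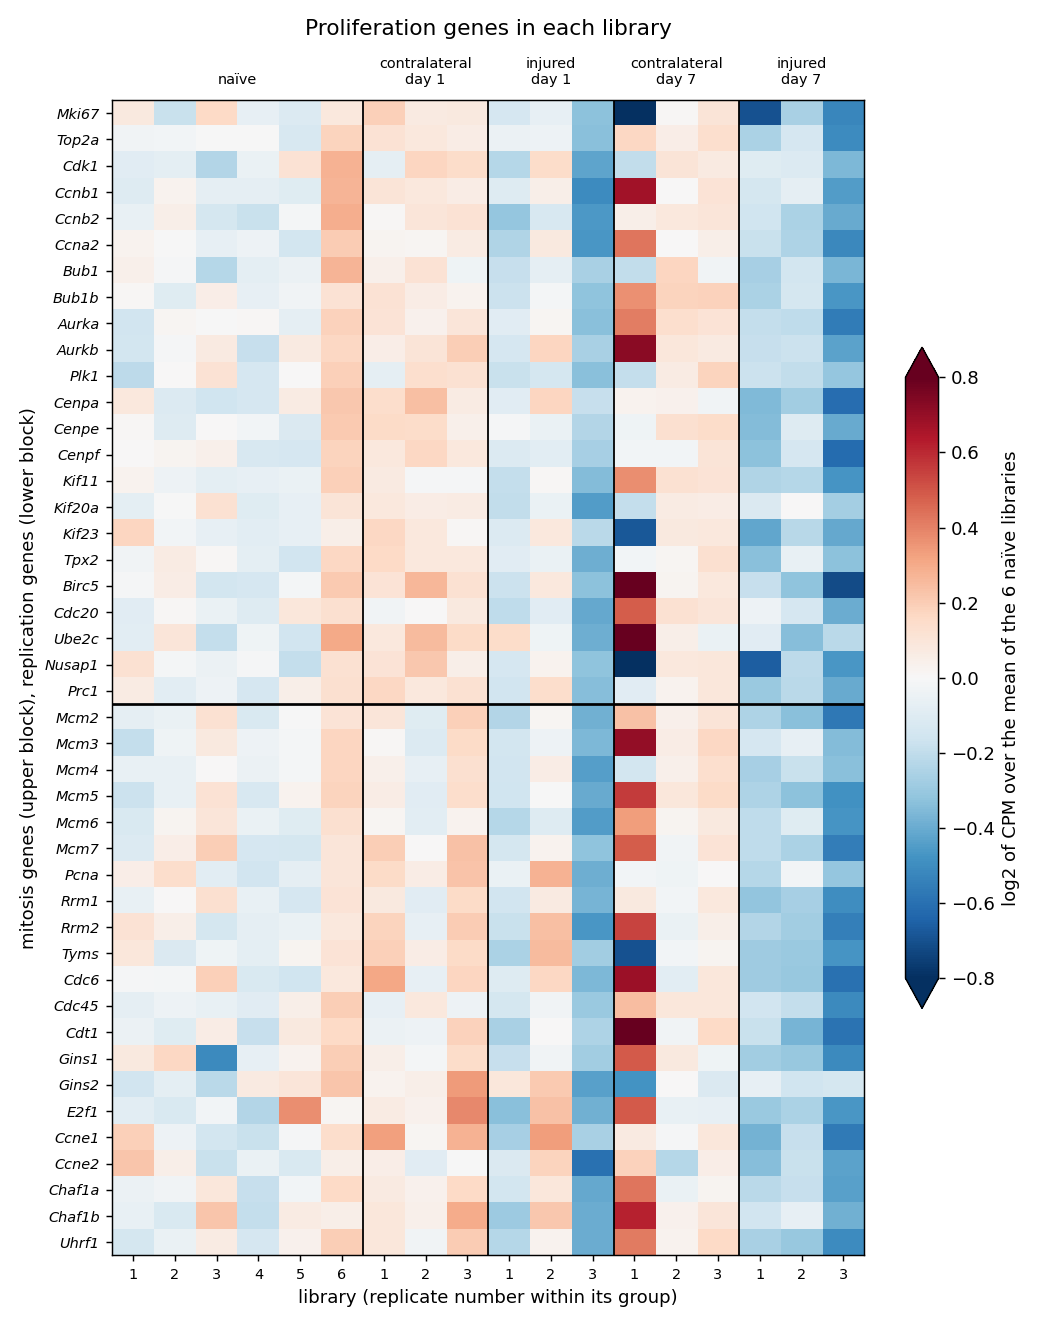
Each of the 44 genes (rows, mitosis above the line and replication below it) in each of the 18 libraries (columns, by group), coloured by log2 of its CPM over the mean of the 6 naïve libraries. All 3 injured day 7 libraries are mostly blue (lower), and contralateral day 7 replicate 1 holds both the deepest red and the deepest blue cells. The colour scale ends at 0.8 on either side.

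The fold changes of all genes, and with them those of the proliferation genes, depended on how the libraries were scaled. The CPM and edgeR values below use TMM factors (trimmed mean of M-values), which set the middle of the genes level between libraries, and hold for that scaling unless another is named. The deposited TPM are instead shares of a fixed total. In them the pseudogenes Gm12895 and Gm12896 and the small RNA genes Rn7s1 and Rn7s2 together held 59.2% to 67.1% of the total in naïve libraries, 52.0% to 58.1% in contralateral day 1, 48.9% to 58.2% in injured day 1 and 68.2% to 71.4% in injured day 7 libraries. Contralateral day 7 libraries had the widest range, from 55.8% to 76.4%, with the highest share in replicate 1. Over 7845 genes with a mean of at least 5 TPM, the median log2 fold change on the log2(TPM + 0.5) scale was 0.49 in injured day 1 and 0.31 in contralateral day 1 against naïve knees. It was -0.27 in injured day 7 against naïve and -0.74 in injured day 7 against day 1 knees. With TMM factors these medians were -0.04, 0.01, 0.06 and 0.12. Values relative to the median of those genes, here and below, leave out any shift that all genes share. A change in the factor of a library is such a shift, so their likeness between scalings is largely fixed by arithmetic and is no test of robustness. In injured day 7 against naïve knees the median of the mitosis genes differed from that median by -0.31 in TPM and -0.32 with TMM factors. That of the replication genes differed by -0.30 and -0.38, and all 44 genes were below the median of those genes in both. Which scaling is closer to the amounts of RNA in the tissue was not tested.

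At day 7 post injury, none of the 44 genes was called between injured and naïve knees, although each had a small fold change below 0. All 23 mitosis and all 21 replication genes had a log2 fold change below 0, with a median of -0.26 (range -0.46 to -0.11) and -0.32 (range -0.37 to -0.10), whereas the median of all 21129 genes tested was -0.04 and 46.6% of them were above 0. The call required a false discovery rate (FDR) of at most 0.05 together with a 1.5-fold change by edgeR's quasi-likelihood test, by which 6.11% of all genes were called lower and 10.4% higher. DESeq2 and limma-voom called none of the 44 either, and 18 mitosis and 16 replication genes had an unadjusted p under 0.05 in edgeR. Of all 21129 genes, 8679 had such a p, in either direction. At the FDR limit alone, 12 mitosis and 8 replication genes were lower, against 11% of all genes. All 3 injured libraries lay below all 6 naïve libraries for 12 mitosis and 14 replication genes, against 10.8% of all genes. Without injured day 7 replicate 3, the counts at the FDR limit alone were 3 and 0, against 5.48% of all genes. They were 6 mitosis genes without replicate 1 (7.94% of all genes), 2 replication genes without replicate 2 (6.6% of all genes), and with transcript lengths in the fit 6 and 4 (9.01% of all genes). With all 18 libraries in the fit they were 8 and 5, against 9.11% of all genes. In all of these settings each of the 44 fold changes stayed below 0. Other scalings gave calls. By total counts without TMM factors, edgeR called 11 mitosis and 13 replication genes lower, against 21.6% of all genes, and 23 and 21 at the FDR limit alone, against 38.2%. In TPM, limma called 12 and 10 lower, against 8.5% of all genes, with 23 and 17 at the FDR limit alone, against 16.3%, and the groups were apart for 18 and 18, against 19.8%.

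Among the mitosis genes, Mki67 stood at 938, 1266 and 1058 CPM in the 3 injured day 7 libraries, below the naïve libraries, which ran from 1340 to 1696 CPM. Its log2 fold change was -0.46 ± 0.11 (SE), with an edgeR FDR of 0.00708, or 0.726 of the naïve level. Without injured replicate 2 it passed the fold limit too, at -0.59, whereas with all 18 libraries in the fit it did not pass the FDR limit (-0.48, edgeR FDR 0.0686). Birc5, or survivin, a subunit of the chromosomal passenger complex, was at 47.0, 42.8 and 32.6 CPM against 48.3 to 61.8 CPM in naïve libraries, again without overlap (log2 -0.37 ± 0.12 SE, edgeR FDR 0.0295, or 0.0861 with all 18 libraries). Top2a was at 478, 519 and 403 CPM against 522 to 644 CPM (log2 -0.27 ± 0.10 SE, edgeR FDR 0.0475). For Cenpf, an outer kinetochore protein, the injured libraries at 148, 169.7 and 122 CPM were below the lowest naïve library at 169.9 CPM, and its log2 fold change was -0.33 ± 0.10 (SE, edgeR FDR 0.0203). The naïve libraries of Cenpf had a median of 187 CPM.

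Other mitosis genes overlapped between the groups in CPM and did not pass the FDR limit there. Cdk1, the kinase that drives entry into mitosis, was at 62.6, 62.0 and 52.3 CPM against 57.0 to 81.3 CPM in naïve libraries (log2 -0.17 ± 0.13 SE, edgeR FDR 0.351). Its partner Ccnb1, or cyclin B1, was at 82.0, 86.0 and 66.3 CPM against 84.4 to 109 CPM (log2 -0.19 ± 0.12 SE, edgeR FDR 0.232). Aurkb, the kinase of the passenger complex, gave -0.24 ± 0.10 (SE) and Plk1, a kinase of centrosomes and cytokinesis, -0.21 ± 0.09 (SE), each with an edgeR FDR of 0.0974. In TPM, all 4 passed the FDR limit. Cdk1 was then at 25.8 to 28.9 TPM in injured against 33.9 to 48.8 TPM in naïve libraries (log2 -0.55, limma FDR 0.0131) and Plk1 at 9.44 to 10.3 TPM against 11.2 to 16.9 TPM (log2 -0.51, limma FDR 0.0159), both without overlap.

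Among the replication genes, Cdc6, which loads the MCM helicase onto origins, was at 50.6, 50.1 and 40.9 CPM in injured libraries against 55.4 to 70.4 CPM in naïve libraries (log2 -0.37 ± 0.12 SE, edgeR FDR 0.0303, or 0.0752 with all 18 libraries). Mcm2 was at 119.2, 112 and 95.0 CPM against 130 to 154 CPM (log2 -0.36 ± 0.10 SE, edgeR FDR 0.0157). Mcm5 was at 121, 115 and 103.1 CPM against 128 to 163 CPM (log2 -0.33 ± 0.10 SE, edgeR FDR 0.0243). These 3 genes had no overlap between the groups. Uhrf1, which keeps DNA methylation through replication, was at 132, 128 and 111 CPM against 143 to 180 CPM (log2 -0.33 ± 0.10 SE, edgeR FDR 0.0255). Tyms was at 35.9, 35.6 and 31.5 CPM against 40.2 to 47.0 CPM (log2 -0.33 ± 0.11 SE, edgeR FDR 0.0307, or 0.0796 with all 18 libraries). Top2a, Cenpf, Mcm2, Mcm5 and Uhrf1 passed the FDR limit in that fit too.

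The remaining replication genes described did not pass the FDR limit. Rrm2 was at 205, 198 and 165 CPM against 219 to 261 CPM (log2 -0.33 ± 0.13 SE, edgeR FDR 0.0675), Ccne1, or cyclin E1, which opens S phase, gave -0.35 ± 0.14 (SE, edgeR FDR 0.0738) and E2f1 -0.32 ± 0.15 (SE, edgeR FDR 0.13), although the groups were apart for all 3. Mcm6 gave -0.23 ± 0.10 (SE, edgeR FDR 0.0809). Pcna differed least of those named, at 182, 210 and 172 CPM against 191 to 234 CPM, with overlap (log2 -0.16 ± 0.12 SE, edgeR FDR 0.337). In TPM it was at 51.8 to 70.6 against 75.2 to 96.7, without overlap (log2 -0.52, limma FDR 0.0212).

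**Figure D3:**
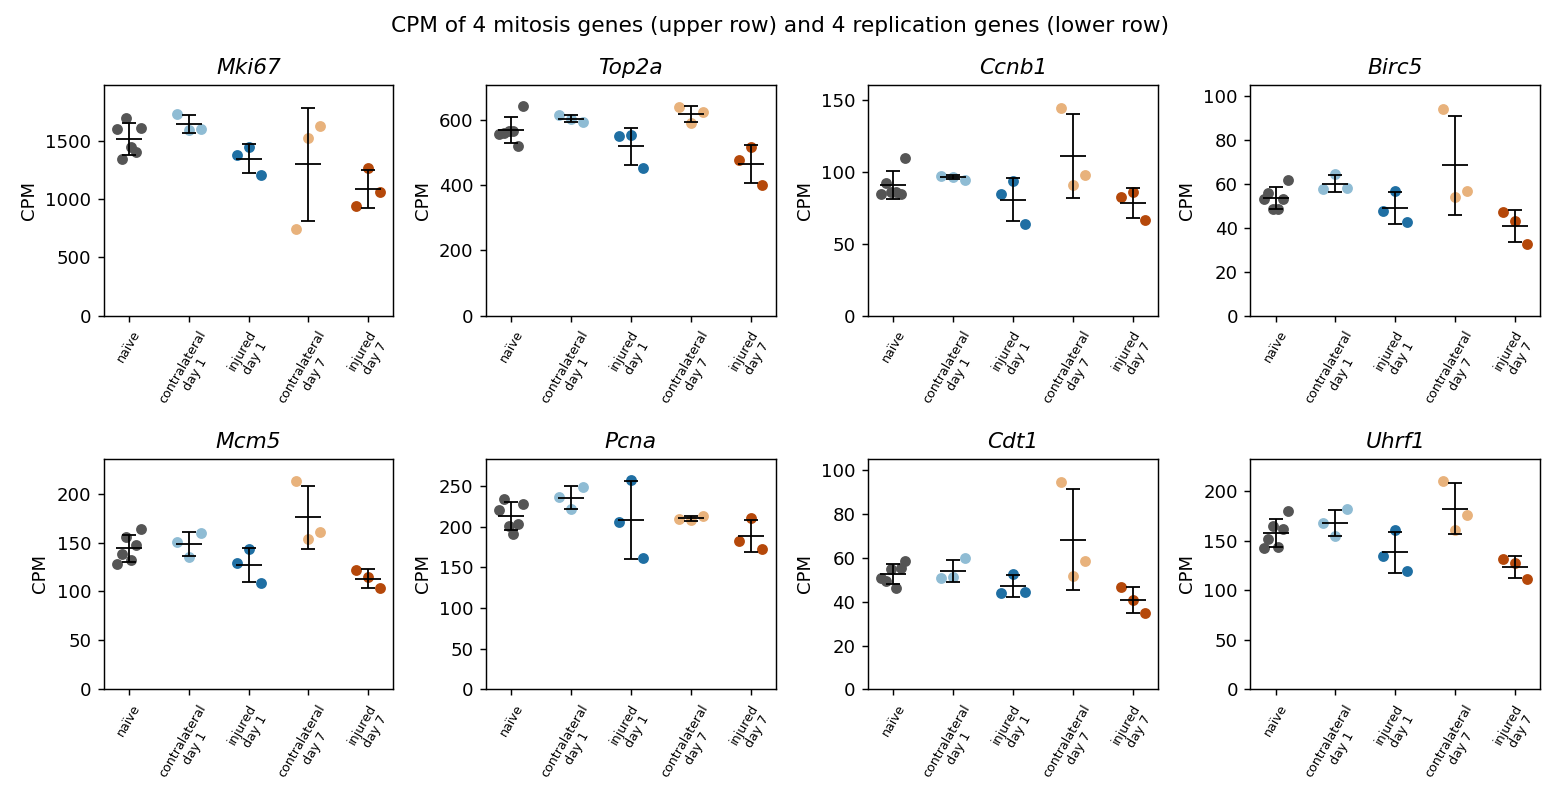
CPM (linear axis from 0) of 4 mitosis genes (Mki67, Top2a, Ccnb1, Birc5) and 4 replication genes (Mcm5, Pcna, Cdt1, Uhrf1) in each library. Points are libraries, and bars are the mean and SD of a group (n = 6 naïve, n = 3 in the others). Injured day 7 lies below naïve without overlap for Mki67, Top2a, Birc5, Mcm5 and Uhrf1, and the wide bars of contralateral day 7 come from replicate 1.

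Marker genes of other cell types moved over the same libraries. The cells that expressed these markers cannot be told from bulk RNA, and Prg4 stands in both the chondrocyte and the synovial fibroblast list. The erythroid sum was 28542, 24414 and 17489 CPM in the 3 injured day 7 libraries, below all naïve libraries (32119 to 42723 CPM). Of its 14 markers, all had a log2 fold change below 0 and 7 were called lower than in naïve knees, where 6.11% of all genes were called lower and 10.4% higher. The neutrophil sum was 13850, 10695 and 10129 CPM, and overlapped the naïve range. Of its 17 markers, 16 were below 0 and 2 were called lower. The B-lineage sum was 328, 342 and 312 CPM, within the naïve range of 248 to 436 CPM, with 1 of 14 markers called lower. In contrast, the synovial fibroblast sum, led by Col3a1, was 26104, 27346 and 31335 CPM against 2334 to 4628 CPM, with 7 of 11 markers called higher. The chondrocyte list had 4 of 15 markers called higher and 1 lower, and the macrophage list, led by Lyz2, 1 of 14 called higher. Of the remaining lists, 5 of 10 endothelial markers were called higher, 1 of 10 muscle markers lower, 1 of 10 osteoblast markers higher and 2 lower, and 1 of 9 osteoclast markers higher. The sum of the 23 mitosis genes was 2982, 3435 and 2826 CPM against 3715 to 4378 CPM, and that of the 21 replication genes 1844, 1876 and 1573 CPM against 2029 to 2372 CPM. Per 100 CPM of erythroid markers, mitosis genes made up 10.4, 14.1 and 16.2 CPM in the injured libraries and 9.54 to 11.8 CPM in naïve libraries. Replication genes made up 6.46, 7.69 and 8.99 CPM against 5.24 to 6.56 CPM. Neither class was lower relative to the erythroid list, which had the most markers called lower of all lists. The ratio holds for that list alone and was not taken for the others. The B-lineage sum stayed within its naïve range and the neutrophil sum overlapped its own, while the sums of both classes lay below theirs. All 14 erythroid markers were below 0 by total counts and in TPM too, with 13 and 11 called lower, and 6 of the 11 synovial fibroblast markers were called higher by each. Of all genes, 21.6% were called lower and 6% higher by total counts, and 8.5% lower and 3.87% higher in TPM. The chondrocyte median went from 0.30 with TMM factors to -0.02 and -0.0030. The part of marrow RNA and of fibroblast RNA in the values of the proliferation genes was not tested.

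**Figure D4:**
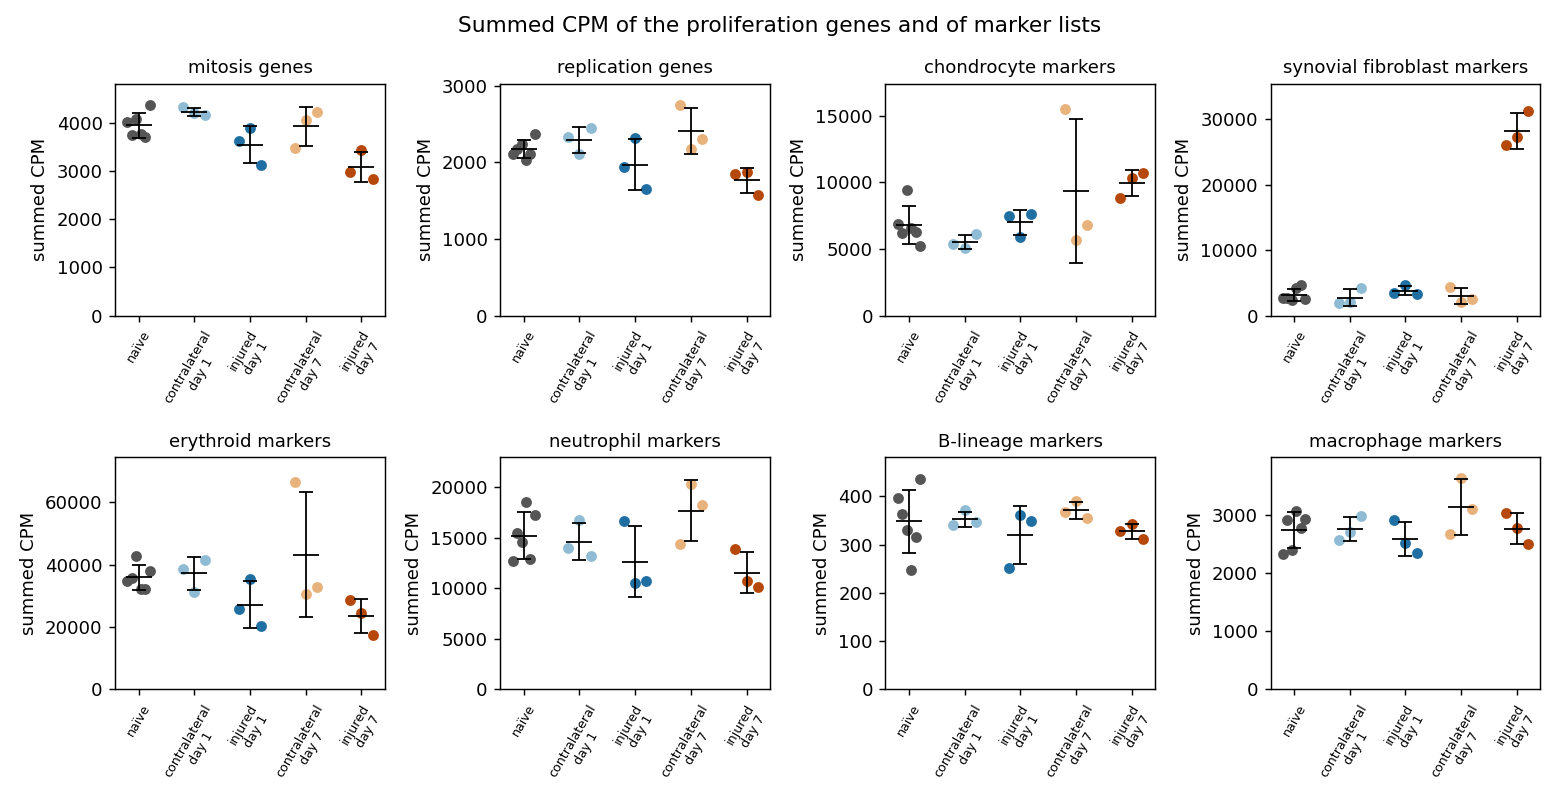
CPM summed over the mitosis genes, the replication genes and 6 lists of cell type markers in each library (linear axes from 0). Points are libraries, and bars are the mean and SD of a group. At day 7 post injury, the mitosis, replication and erythroid sums lie below the naïve range, and the synovial fibroblast sum of 26104 to 31335 CPM lies above every other library.

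Against the contralateral knees of day 7, which share the injured libraries with the comparison above, 1 mitosis and 3 replication genes were called lower and none higher, against 3.23% and 9.33% of all 21262 genes. These were Birc5 (GRCm38 chr11:117849251-117855743, plus strand), Cdt1 (chr8:122568015-122573554, plus strand), Cdc6 (chr11:98907801-98923940, plus strand) and Mcm5 (chr8:75109569-75128439, plus strand). At the FDR limit alone 14 mitosis and 13 replication genes were lower, against 6.16% of all genes, and the groups were apart for 16 and 17, against 14.3%. The median log2 fold change was -0.37 over the mitosis genes and -0.46 over the replication genes, and -0.05 over all genes. All were below 0 except Gins2, a subunit of the GINS part of the helicase, at 0.06 ± 0.16 (SE, edgeR FDR 0.855).

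These 4 calls were lost without contralateral day 7 replicate 1. Birc5 was at 94.1, 54.2 and 56.6 CPM in the contralateral libraries and had a log2 fold change of -0.74 ± 0.18 (SE, edgeR FDR 0.00842). Without replicate 1 this became -0.42 (edgeR FDR 0.0593). Cdt1 was at 94.5, 51.5 and 58.8 CPM in the contralateral and 46.5, 40.6 and 35.0 CPM in the injured libraries. It went from -0.74 ± 0.18 (SE, edgeR FDR 0.00613) to -0.42 (edgeR FDR 0.0377) without it. Cdc6, at 99.4, 58.3 and 65.8 CPM in the contralateral libraries, went from -0.65 ± 0.18 (SE, edgeR FDR 0.014) to -0.37 (edgeR FDR 0.101). Mcm5, at 213, 154 and 161 CPM, went from -0.63 ± 0.14 (SE, edgeR FDR 0.00289) to -0.45 (edgeR FDR 0.0193). In each of these genes contralateral replicate 1 was the highest of all 18. Without it none of the 44 genes was called, 9 mitosis and 4 replication genes were lower at the FDR limit alone, and all 44 were below 0, against 1.99% of all genes called lower and 4.36% lower at the FDR limit alone. The calls were also lost without injured day 7 replicate 3, where 3 and 3 were lower at the FDR limit alone, against 1.28% of all genes called lower and 2.14% lower at the FDR limit alone. Without that library the log2 fold changes of Birc5, Cdt1, Cdc6 and Mcm5 were -0.61, -0.65, -0.57 and -0.58 (edgeR FDR 0.0639, 0.0502, 0.0831 and 0.0256). With only the 2 groups in the fit, by which 1.54% of all genes were called lower, Birc5, Cdc6 and Cdt1 had fold changes of -0.74, -0.66 and -0.75 but were not called (edgeR FDR 0.102, 0.0961 and 0.0938), and Mcm5 was (edgeR FDR 0.0419). By total counts, 8 mitosis and 9 replication genes were called lower, against 6.14% of all genes. In TPM none was, against 0.221%. Birc5, Cdt1, Cdc6 and Mcm5 had log2 fold changes of -0.68, -0.69, -0.58 and -0.60 in TPM.

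Mki67 went the other way in that library. It was at 744, 1524 and 1627 CPM in the contralateral libraries, so that its log2 fold change was -0.26 ± 0.21 (SE, edgeR FDR 0.445) with replicate 1 and -0.51 (edgeR FDR 0.0159) without it. Aurkb, at 90.3, 58.3 and 57.6 CPM, gave -0.58 ± 0.16 (SE, edgeR FDR 0.0141) and without replicate 1 -0.32 (edgeR FDR 0.106). Ccnb1, at 144, 90.7 and 97.4 CPM, gave -0.50 ± 0.17 (SE, edgeR FDR 0.0435) and without replicate 1 -0.25 (edgeR FDR 0.291). Top2a gave -0.41 ± 0.11 (SE, edgeR FDR 0.0169) and Cenpf -0.37 ± 0.11 (SE, edgeR FDR 0.0295), and both passed without replicate 1 too (-0.36 for each, edgeR FDR 0.0459 and 0.0479). Plk1 gave -0.25 ± 0.11 (SE, edgeR FDR 0.137) and Cdk1 -0.18 ± 0.15 (SE, edgeR FDR 0.433), which did not pass. Of the replication genes described, Uhrf1 gave -0.56 ± 0.13 (SE, edgeR FDR 0.00474), Rrm2 -0.55 ± 0.17 (SE, edgeR FDR 0.029), Mcm2 -0.51 ± 0.12 (SE, edgeR FDR 0.00522) and Mcm6 -0.40 ± 0.12 (SE, edgeR FDR 0.0237). Without replicate 1, Uhrf1 and Mcm2 still passed the FDR limit (-0.42, edgeR FDR 0.0308, and -0.43, edgeR FDR 0.0252). Rrm2 and Mcm6 did not (-0.33, edgeR FDR 0.184, and -0.28, edgeR FDR 0.123). E2f1, Ccne1, Tyms and Pcna did not pass, with -0.48, -0.42, -0.16 and -0.16, nor without replicate 1, with -0.25, -0.39, -0.33 and -0.14. In this comparison 9 of 14 erythroid and 4 of 17 neutrophil markers were called lower and 8 of 11 synovial fibroblast markers higher, against 3.23% of all genes lower and 9.33% higher. Without replicate 1 these counts were 0, 5 and 7, against 1.99% lower and 9.31% higher, with 5 erythroid markers lower at the FDR limit alone and all 14 below 0. In the other lists 5 chondrocyte, 3 endothelial, 1 osteoclast and 1 B-lineage marker were called higher, 1 macrophage and 1 osteoblast marker lower, and no muscle marker. Without replicate 1, 4 chondrocyte, 4 endothelial, 1 macrophage and 1 B-lineage marker were called higher, 2 osteoblast markers lower, and none of the osteoclast and muscle markers.

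**Figure D5:**
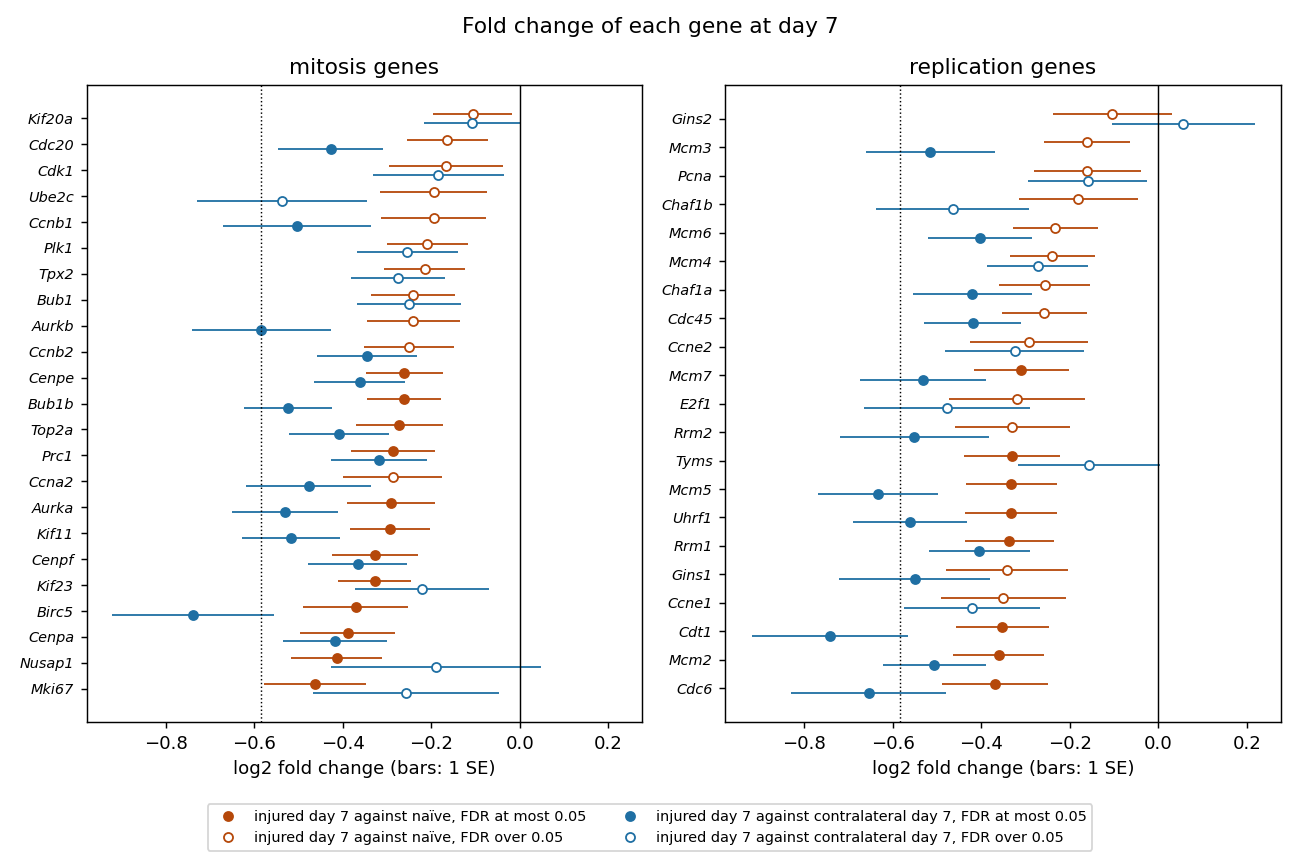
Log2 fold change of each mitosis gene (left) and replication gene (right) in injured day 7 against naïve knees (orange) and against contralateral day 7 knees (blue), with bars of 1 SE. Filled points have an edgeR FDR of at most 0.05 and the dotted line marks a 1.5-fold decrease. Every orange point lies below 0, and all blue points but that of Gins2, which is at -0.12 by total counts and -0.44 in TPM, where Kif23 is at 0.01.

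At day 1 post injury no gene of the series was called with TMM factors, so none of the 44 was (edgeR, 0% of all genes in either direction). The direction against naïve knees turned with the scaling. With TMM factors all 44 log2 fold changes were below 0, with a median of -0.15 over the mitosis genes and -0.14 over the replication genes. Of these, 4 and 1 had an unadjusted p under 0.05 (lowest edgeR FDR 0.987), against 959 of all 21129 genes in either direction. None of the 44 had groups that were apart, where 1.01% of all genes were apart and lower and 1.07% apart and higher. By total counts 8 mitosis and 7 replication genes were above 0, with medians of -0.02 and -0.0074. In TPM all 44 were above 0, with medians of 0.39 and 0.36, and 8 and 3 were apart and higher, against 34.9% of all genes. At the FDR limit alone limma then had 13 and 10 higher, against 50.8% of all genes, with none of the 44 called, against 13.2%. Top2a, for example, was at 98.3 to 117 TPM in injured and 63.6 to 89.6 TPM in naïve libraries. Relative to the median of the genes from 5 TPM, the medians of both classes were -0.10 and -0.13 in TPM and -0.11 and -0.10 with TMM factors. Against the contralateral knees of day 1 the medians were -0.24 and -0.22, all 44 were again below 0, and 12 and 4 had an unadjusted p under 0.05 (lowest edgeR FDR 0.755). Such a p was found for 1383 of all 21129 genes, in either direction. All 3 injured libraries lay below all 3 contralateral libraries for 15 mitosis and 2 replication genes, against 6.07% of all genes, and above them for none, against 5.09%. In TPM 11 mitosis and 13 replication genes were above 0 in this comparison, with medians of -0.0047 and 0.02, and none was apart. DESeq2 and limma-voom called none of the 44 in either comparison. Mki67 was at 1381, 1450 and 1206 CPM in injured and 1731, 1597 and 1600 CPM in contralateral knees of day 1, with no overlap between them. Injured replicate 3 was the lowest of the 3 for both sums, at 3126 CPM of mitosis and 1655 CPM of replication genes, and had 20322 CPM of erythroid markers, the lowest of the libraries of day 1. Of the 14 erythroid markers, 13 were below 0 in the comparison with contralateral knees, with none called.

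The contralateral knees were also compared with naïve knees. At day 1, with TMM factors, all 23 mitosis and 18 of 21 replication genes were above 0, with medians of 0.09 and 0.09, and none had an unadjusted p under 0.05 (lowest edgeR FDR 1.00). None had groups that were apart, where 0.629% of all genes were apart and higher and 0.753% lower. In TPM all 44 were above 0, with medians of 0.37 and 0.38, and 9 mitosis and 3 replication genes were apart and higher, against 10.1% of all genes, while none passed the FDR limit in limma. Pcna was at 108.5 to 146 TPM in these against 75.2 to 96.7 TPM in naïve libraries. Relative to the median of the genes from 5 TPM, the medians were 0.07 and 0.07 in TPM and 0.08 and 0.09 with TMM factors. At day 7, 17 mitosis and 18 replication genes were above 0, with medians of 0.08 and 0.15. Of these, 6 and 3 had an unadjusted p under 0.05 (lowest edgeR FDR 0.248), against 3220 of all 21262 genes in either direction. The groups were apart for 1 mitosis gene, which was higher, against 1.92% of all genes higher and 2.41% lower. The medians turned to -0.07 and -0.02 by total counts and to -0.14 and -0.11 in TPM. Without contralateral replicate 1, 21 mitosis and 14 replication genes were above 0, with medians of 0.08 and 0.04, and none had an unadjusted p under 0.05 (lowest edgeR FDR 0.903). Neither comparison called any of the 44 genes by edgeR, DESeq2 or limma-voom, and edgeR called 0% of all genes.

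Between day 7 and day 1 injured knees, none of the 44 genes was called with TMM factors or by DESeq2 or limma-voom, where edgeR called 9.04% of all genes higher and 6.38% lower. The medians were -0.12 over the mitosis genes, of which 4 were above 0, and -0.15 over the replication genes, of which 2 were. The scaling changed this. By total counts 11 mitosis and 13 replication genes were called lower at day 7, against 28.6% of all genes. In TPM limma called all 44 lower, with medians of -0.97 and -0.97, against 50.1% of all genes. Mki67 was at 46.9 to 68.0 TPM at day 7 and 103.1 to 135 TPM at day 1, and Top2a at 46.2 to 60.3 TPM against 98.3 to 117 TPM. Relative to the median of the genes from 5 TPM, the medians of both classes were -0.22 and -0.23 in TPM and -0.24 and -0.27 with TMM factors. Cenpa, the histone H3 variant of centromeres, was lower at the FDR limit alone (-0.36, edgeR FDR 0.0427, against 8.2% of all genes). In unadjusted terms, 4 mitosis genes and 1 replication gene had a p under 0.05 in edgeR, against 7996 of all 21129 genes in either direction. An interaction term then compared the effect of injury, taken against the contralateral knees of the same day, between both days. This term had a median of -0.15 for mitosis and -0.22 for replication genes. None passed the FDR limit with edgeR, DESeq2 or limma-voom (lowest edgeR FDR 0.282, for Cdt1), where 3.72% of all genes had a higher and 0.287% a lower effect at day 7. An unadjusted edgeR p under 0.05 was found for 2 replication genes, against 3458 of all 21262 genes in either direction. Without contralateral day 7 replicate 1 the medians were -0.11 and -0.12, with none passing or at an unadjusted p under 0.05 (lowest edgeR FDR 0.372). By total counts the medians of this term were -0.35 and -0.41 and in TPM -0.45 and -0.48, again with none passing. A difference between the days in the effect of injury was thus not detected by the tests of this term.

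The other genes of the cell cycle, in lists that do not hold the 44, followed the same direction. Of 40 further mitosis genes, 39 were below 0 in injured day 7 against naïve knees and 21 were lower at the FDR limit alone, against 11% of all genes, with none called. Of 44 further replication genes, 42 were below 0 and 15 were lower at that limit, again with none called. By total counts and in TPM all genes of these lists were below 0, with 25 and 19 of the mitosis list and 18 and 16 of the replication list called lower, against 21.6% and 8.5% of all genes. Foxm1, the transcription factor of mitosis genes, was between 41.2 and 44 CPM in the 3 injured day 7 libraries against 49.0 to 60.1 CPM in naïve libraries (log2 -0.30 ± 0.09 SE, edgeR FDR 0.0232). Mybl2, or B-Myb, its partner at those promoters, gave -0.34 ± 0.13 (SE, edgeR FDR 0.0647). Against contralateral day 7 knees, 3 and 5 genes of these lists were called lower and none higher, against 3.23% and 9.33% of all genes. The most changed were Spc24, a kinetochore subunit (-0.81 ± 0.25 SE, edgeR FDR 0.0307), Tacc3, a spindle protein (-0.75 ± 0.23 SE, edgeR FDR 0.0321), and Cdc25b, the phosphatase that activates Cdk1 (-0.69 ± 0.20 SE, edgeR FDR 0.0219). Of the replication list they were Rpa2, which coats single-stranded DNA (-0.72 ± 0.22 SE, edgeR FDR 0.0277), Lig1, the ligase of Okazaki fragments (-0.70 ± 0.20 SE, edgeR FDR 0.0219), and Fen1, the flap endonuclease (-0.65 ± 0.20 SE, edgeR FDR 0.0275). In all 6, contralateral day 7 replicate 1 was high, with 161 CPM of Tacc3 against 65.7 and 70.8 CPM in the other contralateral libraries. Without it no gene of both lists was called by edgeR. The fold changes of Spc24, Tacc3 and Cdc25b were then -0.28, -0.19 and -0.40, and those of Rpa2, Lig1 and Fen1 -0.25, -0.27 and -0.29, with edgeR FDRs of 0.159 to 0.288. At the FDR limit alone 14 and 8 genes of the lists were lower, against 4.36% of all genes.

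Genes that act in G1 did not move in one direction with TMM factors. By total counts and in TPM, 20 of 23 were below 0 in injured day 7 against naïve knees. Both scalings lowered genes in general, with 38.2% and 16.3% of all genes lower at the FDR limit alone and 8.95% and 5% higher. With TMM factors, 3 of the 23 genes that act in G1 were higher and 7 lower in injured day 7 than in naïve knees at the FDR limit alone. The shares of all genes were 18.7% and 11%, and none of the 23 was called. Rb1 had the lowest edgeR FDR of them (0.000298) and was lower, at 97.7, 100 and 87.7 CPM in injured against 125 to 143 CPM in naïve libraries. Ccnd2, or cyclin D2, was at 181, 215 and 216 CPM in injured libraries, above the naïve libraries at 138 to 171 CPM (log2 0.44 ± 0.08 SE, edgeR FDR 0.000652), although it did not pass by total counts (0.13, edgeR FDR 0.169) or in TPM (0.10, limma FDR 0.664). Against contralateral knees it did not pass (log2 0.24 ± 0.14 SE, edgeR FDR 0.26), where replicate 1 stood at 227 CPM and without which it passed the FDR limit (0.50, edgeR FDR 0.00225). Ccnd1, or cyclin D1, was at 49.9, 62.9 and 51.8 CPM, within the naïve range of 43.7 to 68.4 CPM (log2 0.12 ± 0.15 SE, edgeR FDR 0.582). Ccnd3, or cyclin D3, gave -0.24 ± 0.09 (SE, edgeR FDR 0.0626) against naïve knees and was called lower against contralateral knees, at -0.64 ± 0.19 (SE, edgeR FDR 0.0218), where replicate 1 held 517 CPM and the others 268 and 274 CPM. Without replicate 1 it was at -0.24 (edgeR FDR 0.157). E2f2, an activating E2F factor, was at 212, 196 and 150 CPM in injured and 509, 243 and 259 CPM in contralateral libraries. It was called lower with replicate 1 (-0.85 ± 0.22 SE, edgeR FDR 0.0102) and not without it (-0.41, edgeR FDR 0.0696). E2f5, an E2F factor that binds pocket proteins, was the only gene of this list called higher, at 5.45, 5.32 and 5.60 CPM in injured and 1.95, 3.70 and 3.55 CPM in contralateral libraries (log2 0.80 ± 0.21 SE, edgeR FDR 0.0131), and it was called without replicate 1 too (0.61, edgeR FDR 0.0331), but neither by total counts (0.61, edgeR FDR 0.15) nor in TPM (0.49). E2f4, which represses cell cycle genes in resting cells, was lower at the FDR limit alone against naïve knees (-0.32 ± 0.11 SE, edgeR FDR 0.0333), but not with all 18 libraries in the fit (edgeR FDR 0.0596).

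The counts of a gene sum all of its transcripts, of which some code for no protein. For 2 genes, protein-coding transcripts held less than the others did, with 25.8% of the counts of Cenpa and 48.3% of those of Tyms over all libraries. Retained-intron transcripts held 38.1% of the counts of Cenpa and 19.8% of those of Tyms. The next lowest share of protein-coding transcripts was that of Kif23, a kinesin of the cleavage furrow, at 74.1%. In Cenpa the share was 23.8% in injured day 7 and 28.3% in naïve knees. It was 24.4% in injured day 1, 24.5% in contralateral day 1 and 25.4% in contralateral day 7 knees.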

How the data were processed

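Total RNA of 18 pools of femoral condyle cartilage was sequenced (6 naïve, and 3 each of injured and contralateral knees at day 1 and day 7). The authors trimmed the reads with Trimmomatic, pseudo-aligned them with Kallisto to GRCm38 transcripts and deposited estimated counts and TPM per transcript. No normalization beyond TPM was applied to the deposited values. Transcripts were matched to GENCODE genes (135107 of 137436, 98.3%), and the estimated counts of a gene's transcripts were added up and rounded to whole numbers. Groups, from the labels, were compared with edgeR 4.0.16 (R 4.3.3): TMM, filterByExpr, quasi-likelihood test, Benjamini-Hochberg adjustment over all genes, call at FDR of at most 0.05 and 1.5-fold (FDR alone for the difference of injury effects). Fits used 15 libraries, or all 18 where contralateral day 7 was compared. The study tested with limma-voom and a correlation between knees of the same mice, which the labels did not allow. Alternatives were RLE, no filter, a transcript length offset, DESeq2 1.42.0, limma-voom (limma 3.58.1), other groups in the fit, the FDR limit alone and each library left out. Lists without contralateral day 7 replicate 1 and counts at the FDR limit alone were chosen after seeing the data. Scalings by total counts (edgeR without TMM factors) and by the deposited TPM (limma with a mean-variance trend on log2(TPM + 0.5), same genes and limits) were also added after seeing the data. The tests were checked on simulated data.

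The 44 genes and all lists were chosen with earlier results of these data known. Genes with values in the text were Mki67, Top2a, Cdk1, Ccnb1, Aurkb, Birc5, Plk1, Cenpf, Pcna, Mcm2, Mcm5, Mcm6, Rrm2, Tyms, E2f1, Ccne1, Uhrf1, Ccnd1, Ccnd2, Ccnd3, Foxm1, Mybl2 and E2f4, and the 3 most changed called genes of each class or list, with others named for an extreme value. CPM used TMM factors of all 18 libraries. SE is that of the log2 fold change. No pair of libraries agreed within sampling noise (highest Pearson r 0.994 across 15993 genes, which are not independent replicates; lowest chi-square 15.9 per degree of freedom). Depth limits and tests cover counting error and the spread between pools only.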

Additional observations from a re-analysis of the deposited data

Results flagged for a closer look

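In 4 of the 44 genes, 1 of the 6 naïve libraries lay far from the rest by Dixon's test at the 95% level, where chance would flag about 2.2 of 44. Ccnb1 was at 109 CPM in naïve replicate 6, against 84.4 to 92.3 CPM in the other naïve libraries. Cenpe, a kinetochore motor, was at 122 CPM in the same library, against 97.4 to 106 CPM. Mcm4, a helicase subunit, was there at 136 CPM, against 116 to 121 CPM. E2f1 was at 35.5 CPM in naïve replicate 5, against 23.3 to 27.7 CPM. Without naïve replicate 6, all 44 fold changes of injured day 7 against naïve knees remained below 0.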

How the results depend on the processing

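No paired analysis was possible because the labels give no shared replicate numbers and do not say which libraries share mice. For injured day 7 against naïve knees, the calls of 0 mitosis and 0 replication genes became 12 and 8 with the FDR limit alone. The counts at the FDR limit alone, which were added after seeing the data, became 6 and 4 with the transcript length offset. The replication count became 13 with DESeq2 and 5 with all 18 libraries in the fit. With a library left out, the calls ran from 0 to 1 (mitosis) and the counts at the FDR limit alone from 3 to 13 (mitosis) and 0 to 9 (replication). For injured against contralateral day 7 knees, the calls of 1 mitosis and 3 replication genes became 14 and 13 with the FDR limit alone and 3 and 7 with the transcript length offset. They became 0 and 1 when only the 2 groups were fitted, and the mitosis count became 2 with RLE, without the filter and with DESeq2. With the FDR limit alone, fitting only the 2 groups gave 2 and 3. With a library left out, the calls ran from 0 to 5 (mitosis) and 0 to 9 (replication), and the counts at the FDR limit alone from 3 to 13 and from 3 to 14. Between injured day 7 and day 1, the FDR limit alone gave 1 mitosis gene lower. The log2 fold change of Gins2 against contralateral day 7 knees turned from 0.06 to -0.51 with the length offset and to -0.044 without contralateral replicate 1, within a range of -0.044 to 0.15 with a library left out. That of Nusap1 turned from -0.19 to 0.0011 without contralateral replicate 3, within a range of -0.50 to 0.0011. By total counts and in TPM, scalings added after seeing the data, Gins2 turned to -0.12 and -0.44, and Kif23 turned from below 0 to 0.011 in TPM. By total counts the calls against naïve knees became 11 and 13, and 23 and 21 with the FDR limit alone, and in TPM (limma) 12 and 10, and 23 and 17. The calls against contralateral day 7 knees became 8 and 9 by total counts and 0 and 0 in TPM, with 0 and 0 at the FDR limit alone. Between injured day 7 and day 1 they became 11 and 13 by total counts and 23 and 21 in TPM. Both scalings move all genes. The cause of the other shifts was not tested. In the comparison with naïve knees all 44 genes stayed below 0 in every setting run. In the other 4 comparisons of groups, no setting called any of the 44 genes at the FDR and fold limits together. For the difference of injury effects, none passed the FDR limit in any setting. In TPM, genes of both classes were higher in injured day 1 than in naïve knees at the FDR limit alone, as given above. Between injured day 7 and day 1, only these scalings called any, and the FDR limit alone gave the 1 mitosis gene.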
